A study of Homo sapiens with 12 samples.

Results

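The genes of the cytosolic ribosomal proteins were the rows of the count table whose identifiers carry the symbol RPL or RPS with a number and an optional A, X or L, together with RPLP0, RPLP1, RPLP2 and RPSA. Pseudogenes, the RPS6K kinases and Y-linked copies were left out. The rule gave 81 of 63568 identifiers, 49 of the large and 32 of the small subunit. RNA was measured in bulk in MDA-MB-231, a mesenchymal triple negative breast cancer line carrying GFP, grown as a suspension in 3D Matrigel droplets. Untreated cells were taken on day 2 (C1) and on day 4 (C2). Treated cells received Paclitaxel, which stabilizes microtubules, on day 2 at 0.0005, 0.005, 0.05 or 0.5 μM and were taken on day 4. Each of the 6 conditions had 2 biological replicates, 12 libraries in all, and every sample is 1 line in 1 matrix.

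The cytosolic ribosome translates nearly all proteins of a cell and joins a small subunit, which reads the message, to a large subunit, which makes the peptide bond. Most of its proteins are needed in equal numbers, and the genes of its proteins are known to be expressed together at high levels in dividing cells. Most of their messages begin with a terminal oligopyrimidine (TOP) tract, a C at the first transcribed base followed by a run of pyrimidines, through which mTOR signalling and LARP1 control their translation.

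The TOP tract was looked for at the first transcribed base of each gene's reference transcript, on the sense strand only, as a C followed by at least 4 bases that are each C or T. It was found in 58 of the 81 genes (71.6%) and in 902 of all 19194 protein-coding genes in the table (4.7%). The windows below run from 10 bases before to 20 bases into the transcript on GRCh37, and capitals mark the pyrimidine run where it meets the rule. The first set holds the 5 genes with the highest level per length on day 4 and the gene with the longest run, RPL39. The windows of RPL7, RPL8, RPL30 and RPS20 are not printed.
RPL5, chr1:93297587-93297616, plus strand: gggctgtggcCCTTTTCCCaccccctagcg
RPLP0, chr12:120638895-120638924, minus strand: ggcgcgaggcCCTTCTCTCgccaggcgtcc
RPS18, chr6:33239842-33239871, plus strand: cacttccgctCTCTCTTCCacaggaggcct
RPLP1, chr15:69745147-69745176, plus strand: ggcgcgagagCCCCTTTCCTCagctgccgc
RPL41, chr12:56510407-56510436, plus strand: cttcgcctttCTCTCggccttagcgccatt
RPL39, chrX:118925574-118925603, minus strand: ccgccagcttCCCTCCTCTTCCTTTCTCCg
The runs were between 5 bases in RPL41 and 19 bases in RPL39. The second set holds genes that missed the rule: RPL3, which the results below set apart from its neighbours, RPS4X, and the paralogs RPL3L, RPL39L and RPS27L.
RPL3, chr22:39715609-39715638, minus strand: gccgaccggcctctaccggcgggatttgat
RPS4X, chrX:71497079-71497108, minus strand: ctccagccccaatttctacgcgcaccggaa
RPL3L, chr16:2004671-2004700, minus strand: tggccctgccactcgacctctggcggctag
RPL39L, chr3:186857265-186857294, minus strand: cggggaaatcgcggtcttagcatccggcgc
RPS27L, chr15:63449657-63449686, minus strand: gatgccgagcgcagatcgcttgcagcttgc
RPL3 started with a run of 4 pyrimidines, 1 short of the rule, and the other 4 did not start with a pyrimidine run at all. A match is a description of these letters at the annotated start, and no match says nothing about where transcription began in these cells.

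The libraries held 38380629 to 79169121 counts, with a median of 65977095.5. Ribosomal protein genes took 4.89% to 8.81% of the counts of a library, and the mitochondrial genes 3.73% to 7.74%. The library of C1 replicate 2 stood apart: it had the fewest counts, the highest share of ribosomal protein genes and the highest mitochondrial share. In the same library the other genes of at least 10 CPM (read counts scaled to the TMM library size) had a median deviation from their means of 0.24 on the log2 scale if up to 1531 bases long and of -0.18 if their GC content was 56.4% or more. In C1 replicate 1 that median was 0.05 for the short and 0.42 for the GC-rich genes. Of the markers of the line, VIM, CD44, EGFR, AXL and CAV1 were together at 2390 to 3648 CPM in the 4 untreated libraries and at 1936 to 2546 CPM in the 8 treated ones. In treated against untreated libraries AXL (log2 change -0.88, SE 0.16, adjusted p = 0.00113 by edgeR), EGFR (-0.46, SE 0.15, adjusted p = 0.0281) and CAV1 (-0.34, SE 0.11, adjusted p = 0.0351) were lower, and VIM and CD44 were not called. These 3 of 5 stand beside 11.3% of all genes called lower. The untreated group mixes both days and was wide, with AXL at 553 ± 204 CPM beside 301 ± 36.1 in treated libraries (SD). Against C2 none of the 5 was called at a single dose, where 2.34% to 8.32% of all genes were called. Of 8 markers of fibroblasts and leukocytes, 6 could be tested and were together at 9.22 to 17.02 CPM in untreated and 12.97 to 21.5 CPM in treated libraries. DCN and COL1A2, which define fibroblasts, had 53 and 29 counts over all 12 libraries. PDGFRA (log2 change 2.73, SE 0.46, adjusted p = 0.000579 by edgeR) and COL3A1 (2.03, SE 0.45, adjusted p = 0.00407) were higher in treated libraries at a mean of 1.14 and 0.938 CPM, as was PTPRC at 0.195 CPM. These were 3 of the 6 tested, beside 13.1% of all genes called higher, and their part in the values below was not tested.

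Ribosomal protein genes were among the abundant messages of these cells. Of the 81 genes 80 passed the filter on low counts, 26 of them with a mean of at least 1000 CPM, 48 between 100 and 1000 CPM and 6 under 100 CPM. RPL10L, a paralog of RPL10 known from the testis, had 21 counts over 8 libraries, at most 4 in one, and was not tested. Levels were compared between genes per kilobase of a median transcript. On day 4 without treatment RPL5, which binds 5S rRNA, was highest with 2854 ± 323 CPM per kilobase (SD, n = 2). RPLP0, the base of the stalk that recruits elongation factors, followed with 2613 ± 339. RPS18 of the head of the small subunit had 2369 ± 451, the stalk protein RPLP1 2294 ± 484 and RPL41, the shortest protein of the ribosome, 2183 ± 383. Neighbours in this order differed by less than their spread. These 5 genes were the 5 highest in all 6 conditions, and RPS18 stood first in the 4 treated ones and RPL5 in the 2 untreated ones. This order depends on the lengths used, which were 629 bases for RPL5 and 993 bases for RPLP0. In CPM without the length, RPLP0 was above RPL5 in C2, with 2595 ± 336 beside 1795 ± 203.

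**Figure D1:**
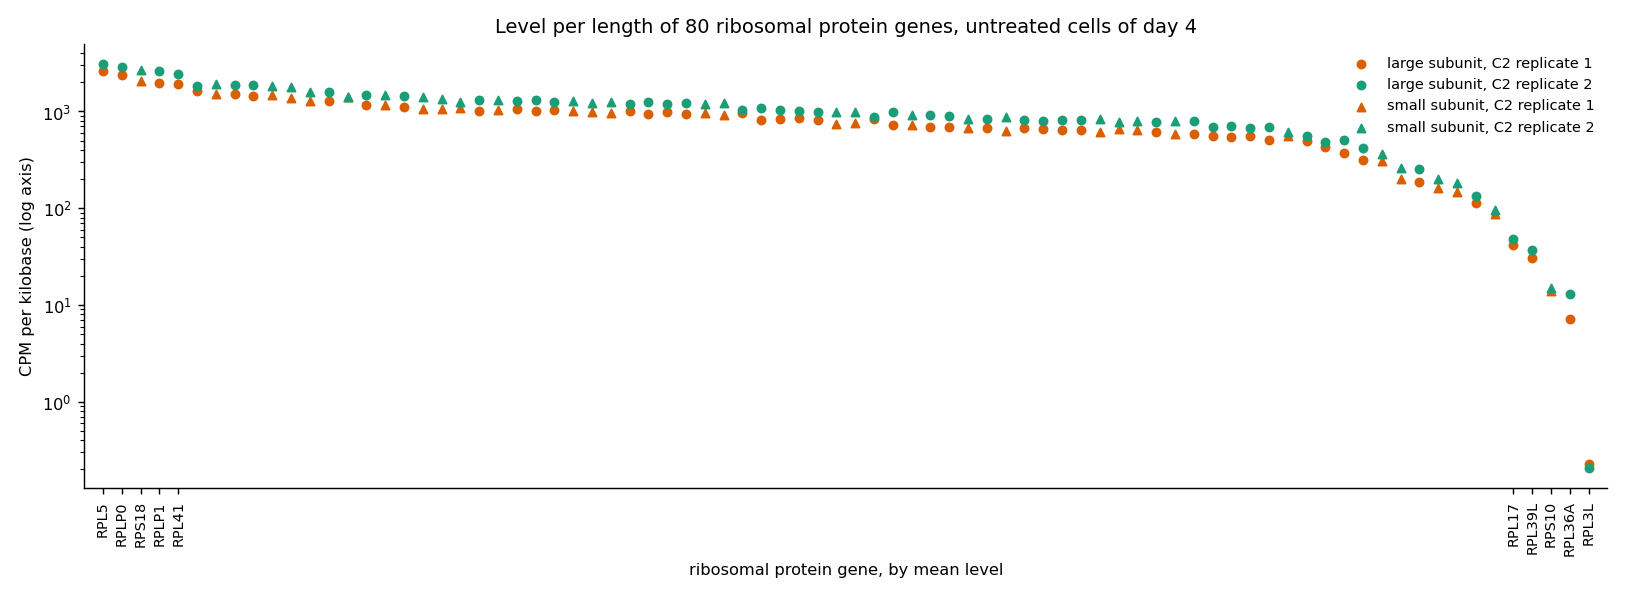
Level of the 80 tested ribosomal protein genes in the 2 libraries of untreated cells of day 4, in CPM per kilobase on a log axis, ordered by their mean. Circles are genes of the large and triangles genes of the small subunit, and color gives the replicate. The 5 highest and the 5 lowest genes are labelled. From RPL5 at 2854 CPM per kilobase the levels fall gradually and drop steeply over the last genes, to RPL3L at 0.217.

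At the other end, RPL3L, the paralog of RPL3 known from muscle, had 0.217 ± 0.016 CPM per kilobase, RPL36A 10.2 ± 4.15, RPS10 14.5 ± 0.62, RPL39L 33.8 ± 4.55 and RPL17 44.9 ± 4.92. These were the 5 lowest genes in all 6 conditions. RPL36A, RPS10 and RPL17 overlap readthrough genes that join them to a neighbour, and they had a mean of 431, 671 and 2351 counts per library. Named pseudogenes held more counts than the gene itself for each of them: 92.5% of the counts of RPL36A and its pseudogenes together, 80.9% for RPS10 and 85.1% for RPL17. For RPL9 that share was 45.4%, for RPL41 35.0% and for RPL39 33.5%. Whether the counting has a part in these levels was not tested. Some genes had near-equal counts with identifiers that have no symbol, although uniquely aligned reads are said to have been counted, and how such loci were treated is not given in the sources used here. RPS18 had 4 such identifiers with counts within 1% of its own in every library, RPS9 had 2, and RPL7A, RPS25, RPS19 and RPL36A had 1 each. The length also bears on the order, since RPL14 was set at 7072 bases, the longest, where the median over the 81 genes was 705.

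From library to library the genes moved together. The median deviation of the 80 genes from their own means, in log2 CPM, was -0.27 and 0.61 in the 2 libraries of C1 and -0.47 and -0.13 in those of C2. In treated cells it was, by rising dose, 0.07 and 0.25, then -0.07 and 0.02, then 0.15 and -0.38, and last 0.07 and 0.17. Replicates of C1 thus lay farther apart than any 2 conditions, and those of 0.05 μM also fell on both sides of the mean. C1 replicate 2 was the highest library for 72 of the 80 genes. The lowest was C2 replicate 1 for 62 and replicate 2 at 0.05 μM for 15. The SD of a gene over the 12 libraries had a median of 0.31 on the log2 scale, and 0.07 once the median of all ribosomal protein genes of each library was subtracted. Other short genes had a median deviation of 0.24 in C1 replicate 2, -0.24 in replicate 2 at 0.05 μM and -0.02 in C2 replicate 1. Whether depth, transcript length or GC content has a part in the position of a library was not tested.

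**Figure D2:**
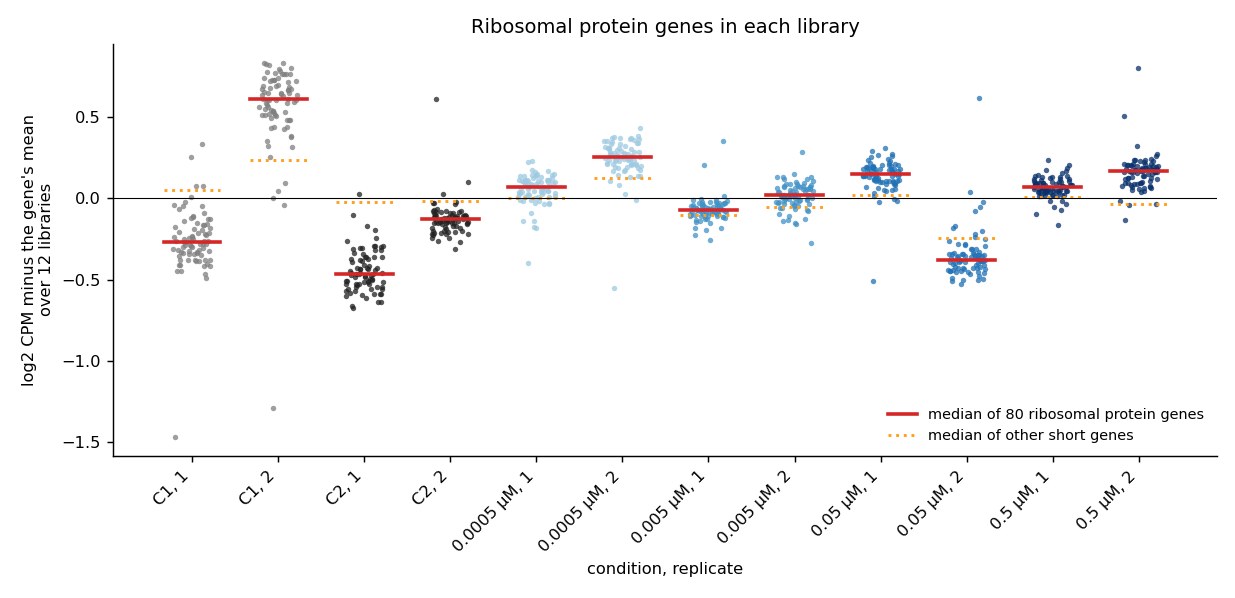
Deviation of log2 CPM from the gene's mean over the 12 libraries (vertical axis) for 80 ribosomal protein genes in each library (horizontal axis, condition and replicate). Each point is a gene, red lines are the medians of these genes and dotted lines the medians of other short genes of at least 10 CPM. The red line is at 0.61 in C1 replicate 2 and at -0.47 in C2 replicate 1, and the points of a library lie close around it.

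Each dose was compared with untreated cells of the same day, to ask whether Paclitaxel changed the genes. All 4 comparisons use the same 2 libraries of C2, of which replicate 1 was the lowest of all for most genes, so they are not independent. Most genes had a higher level than in C2 at every dose. None passed the test of edgeR, and DESeq2 called 2, 0, 1 and 1 by rising dose. With the libraries of both untreated days as control, the median log2 change of the 80 genes was 0.17, -0.03, -0.09 and 0.12 by rising dose, so that its direction turned at 0.005 and 0.05 μM, where 32 and 14 of 80 changes were above 0. RPLP0 had 2357 and 2832 CPM in the libraries of C2. By rising dose, its libraries had 3349 and 3936 CPM, 3081 and 3285 CPM, 3722 and 2579 CPM, and 3641 and 3545 CPM. All treated libraries were above both untreated ones of that day except replicate 2 at 0.05 μM, which lay between them. The log2 change of RPLP0 was 0.49 (SE 0.26, adjusted p = 0.354), 0.29 (SE 0.26, adjusted p = 0.563), 0.28 (SE 0.26, adjusted p = 0.575) and 0.47 (SE 0.26, adjusted p = 0.302) from the lowest to the highest dose.

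At 0.0005 μM the median log2 change of the 80 genes was 0.46, beside -0.04 over the 10608 genes of at least 10 CPM, and 79 of 80 changes were above 0. The quasi-likelihood test of edgeR called 0 of the 80 at an adjusted p under 0.05, where 2.34% of all 25249 genes tested were called. DESeq2 called 2 higher, beside 3.05% of all genes. At an unadjusted p under 0.05 edgeR gave 9 higher, beside 9.55% of all genes, and 1 lower, RPL36A, beside 7.4%. Both treated libraries were above both of C2 for 73 genes, beside 27.1% of all genes tested. The 4 libraries fitted alone gave 37 higher and 1 lower, beside 6.78% and 5.24% of all genes, and leaving out either library of C1, which has no part in the contrast but in the estimate of the spread, gave 8 higher without replicate 1 (4.94% of all genes) and 10 without replicate 2 (5.27%).

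At 0.005 μM the median change was 0.26 beside -0.12 for the genes of at least 10 CPM, with 76 of 80 above 0. edgeR called 0 (3.28% of all genes) and DESeq2 called 0 (3.50% of all genes higher and 1.90% lower), and edgeR gave 0 at an unadjusted p under 0.05, where 11.6% of all genes were higher. The libraries did not overlap and were higher for 61 genes (32.9% of all genes tested). At 0.05 μM the median was 0.21 beside -0.11, with 76 above 0. edgeR called 0 (8.32% of all genes), with 1 higher at an unadjusted p under 0.05 (12.6%), and DESeq2 called 1 higher (5.45%). Here 4 genes were higher without overlap (26.1% of all genes tested): RPL8, RPL28, RPS2 and RPL3L, named after their values were seen. Without replicate 1 of that dose the median was -0.08. At 0.5 μM the median was 0.41 beside -0.11, with 79 above 0. edgeR called 0 (6.32% of all genes), with 4 higher at an unadjusted p under 0.05 (13%), and DESeq2 called 1 higher (4.9%). The 4 were RPL8, RPLP2, RPS12 and RPS26, of which RPL8, RPS12 and RPS26 are named after their values were seen. Both libraries were above both of C2 for 75 genes (31.7% of all genes tested). Without replicate 1 of C1 11 were called higher at this dose (8.7% of all genes), without replicate 2 also 11 (8.66%), and with the 4 libraries fitted alone 6 (5.7%).

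**Figure D3:**
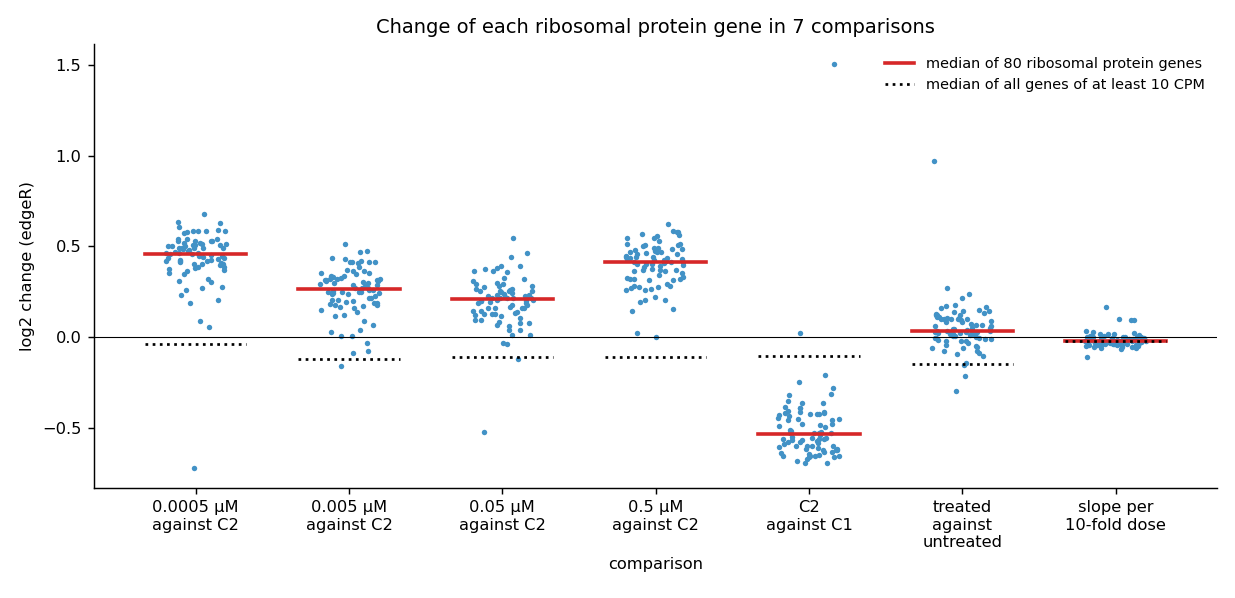
Log2 change by edgeR (vertical axis) of 80 ribosomal protein genes in 7 comparisons (horizontal axis). Each point is a gene, red lines are the medians of these genes and dotted lines the medians of all genes of at least 10 CPM. The medians against C2 were 0.46, 0.26, 0.21 and 0.41 by rising dose, that of C2 against C1 was -0.54, and those of treated against untreated libraries and of the slope were near 0.

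RPL8, which lies near the peptidyl transferase center and was named after its values were seen, since it had the smallest adjusted p of the genes at each dose, had 814 and 847 CPM in C2. Treated libraries had, by rising dose, 1183 and 1306 CPM, 991 and 1056 CPM, 1215 and 1036 CPM, and 1122 and 1094 CPM. None of the 8 overlapped with C2. Its replicates were close together, with an SE of 0.15 for each dose, and its change was 0.58 (adjusted p = 0.0703), 0.30 (adjusted p = 0.311), 0.44 (adjusted p = 0.101) and 0.42 (adjusted p = 0.129). DESeq2 called RPL8 at 0.0005 μM (adjusted p = 0.000932), 0.05 μM (adjusted p = 0.0163) and 0.5 μM (adjusted p = 0.0359). In C1 it had 1020 and 1054 CPM, above C2 and within the range of the treated libraries.

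Among other genes named for their roles, log2 changes at 0.5 μM ran from 0.02 to 0.62. RPS18 had 1125 and 1476 CPM in C2 and 1938 and 2060 CPM at 0.5 μM, a change of 0.62 (SE 0.31, adjusted p = 0.254). Of the stalk, RPLP1 had a change of 0.47 (SE 0.28) and RPLP2 of 0.54 (SE 0.23). RPL5 and RPL11, which hold 5S rRNA and when free bind MDM2, had 0.28 (SE 0.23) and 0.33 (SE 0.26). RPL3 and RPL4 of the core of the large subunit had 0.02 (SE 0.18) and 0.29 (SE 0.23). RPL3 differed little, with 1232 and 1351 CPM in C2 and 1337 and 1288 CPM at 0.5 μM. At the tunnel exit RPL39 had 0.41 (SE 0.31), and RPL22, which is dispensable in many cells, had 0.27 (SE 0.23). RPL10, which joins the large subunit last, had 0.37 (SE 0.24) and RPL13A 0.37 (SE 0.27). Of the genes with the largest spread over the libraries, RPL9 had 0.58 (SE 0.32) and RPL26 0.40 (SE 0.32), and RPL41 had 0.32 (SE 0.30).

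In the small subunit RPSA, also known as the laminin receptor precursor, had a change of 0.44 (SE 0.26) at 0.5 μM, and RPS3, at the entry of the message channel, 0.31 (SE 0.22). RPS6, the target of the S6 kinases, had 608 and 742 CPM in C2 and 875 and 910 CPM at 0.5 μM, a change of 0.40 (SE 0.23). RPS14 and RPS19, whose loss is known from anemias, had 0.56 (SE 0.29) and 0.51 (SE 0.26). RPS27A, made as a fusion with ubiquitin, had 0.56 (SE 0.28), RPS27 0.48 (SE 0.30), RPS29 0.57 (SE 0.32) and RPS4X 0.41 (SE 0.24). The paralogs had 0.53 (SE 0.32) for RPL3L, 0.36 (SE 0.25) for RPL39L and 0.26 (SE 0.25) for RPS27L, a gene known as a p53 target. None of the genes given here passed the test of edgeR. By subunit, the medians at 0.5 μM were 0.40 over 48 large and 0.43 over 32 small subunit genes.

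**Figure D4:**
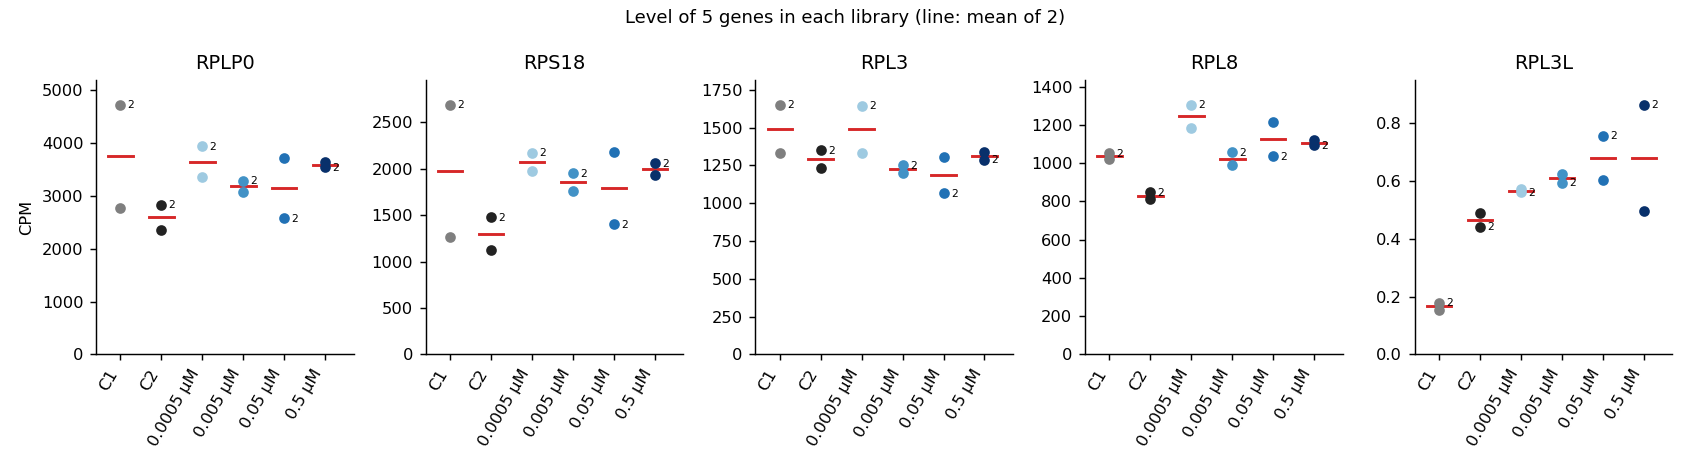
Level in CPM (vertical axis, from 0) of RPLP0, RPS18, RPL3, RPL8 and RPL3L in the 6 conditions (horizontal axis). Points are libraries, those marked 2 are replicate 2, and red lines are the means of 2. RPLP0 and RPS18 are highest in C1 replicate 2 at 4725 and 2691 CPM, RPL8 is lowest in C2 at 814 and 847 CPM, and RPL3L stays under 1 CPM.

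Untreated cells of day 4 were compared with those of day 2. The genes were lower on day 4 in 78 of 80 cases, with a median log2 change of -0.54 beside -0.10 for the genes of at least 10 CPM. This value rested on 1 library. RPLP0 had 2768 and 4725 CPM in C1 and 2357 and 2832 CPM in C2, and RPS18 had 1269 and 2691 CPM in C1 and 1125 and 1476 CPM in C2. Replicate 1 of C1 thus lay within the range of C2, and replicate 2 above it. The change was -0.53 for RPLP0 (SE 0.26, adjusted p = 0.519), -0.61 for RPS18 (SE 0.31, adjusted p = 0.524), -0.42 for RPL5 (SE 0.23, adjusted p = 0.541) and -0.21 for RPL3 (SE 0.18, adjusted p = 0.711). RPS29, in the head of the small subunit, had -0.69 (SE 0.32, adjusted p = 0.498) and RPL8 -0.32 (SE 0.15, adjusted p = 0.51). edgeR and DESeq2 called 0 of 80, where edgeR called 0.325% of all genes and DESeq2 0.753% higher and 0.321% lower, and edgeR gave 14 lower (4.71% of all genes) and 1 higher (5.29%) at an unadjusted p under 0.05. The libraries did not overlap and were lower on day 4 for 11 genes, beside 15.3% of all genes tested. Without replicate 1 of C1, 69 genes were called lower, beside 5.69% of all genes, and the median was -0.91. Without replicate 2 of C1 none was called by edgeR, beside 5.01% called lower, and the median was 0.01. In both cases day 2 was a single library, assumed to vary like the replicates of the other conditions, so these calls compare that library with C2.

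RPL3L had a difference of the opposite sign that did not pass the test. It had 0.15 and 0.18 CPM in C1 and 0.49 and 0.44 CPM in C2, a change of 1.50 (SE 0.40, adjusted p = 0.228). In treated cells it ran from 0.50 to 0.86 CPM. Its 12 libraries held 429 counts in total.

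All 8 treated libraries were compared with the 4 untreated ones of both days in a fit of its own. The treated libraries were all of day 4 and 2 of the untreated ones of day 2, so treatment and day are partly confounded in this contrast. The median log2 change was 0.03, beside -0.15 for the genes of at least 10 CPM, with 56 of 80 above 0. RPL3L was called higher, with a change of 0.97 (SE 0.29, adjusted p = 0.0209), and its treated libraries lay above all untreated ones. The untreated libraries of day 2 had 0.15 and 0.18 CPM and those of day 4 0.49 and 0.44 CPM, beside 0.50 CPM in the lowest treated one, and against C2 alone edgeR called RPL3L at no dose. Without replicate 1 of C1 it was 0.70 and no longer called (adjusted p = 0.0939). The test called 1 of 80 genes, RPL3L, where 24.4% of all genes were called and 13.1% called higher. RPL8 had a change of 0.27 (SE 0.12, adjusted p = 0.102). Treated libraries lay above all untreated ones for 1 gene of 80 (7.39% of all genes tested).

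That count depended on 1 library. Without replicate 2 of C1 the median change was 0.35 and 36 of 80 genes were called higher, beside 13.6% of all genes called higher, with none called lower. Among the 36 were RPS18 (log2 change 0.59, adjusted p = 0.00513), RPL9 (0.54, adjusted p = 0.0084), RPS14, RPS27, RPS27A, RPS19, RPS4X, RPS29, RPL39, RPL10 and RPLP0. Without replicate 2 of C1 and replicate 1 of C2 together, the highest and the lowest library, the median was 0.23 and 2 genes were called, beside 8.09% of all genes called higher. Without replicate 1 of C2 alone the median was -0.08 and 1 gene was called higher (10% of all genes).

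Across the 8 treated libraries the change per 10-fold dose had a median of -0.02 on the log2 scale, the same as over all genes of at least 10 CPM, and 62 of 80 slopes were below 0. edgeR and DESeq2 called 0 of 80, where edgeR called 3.15% of all genes and DESeq2 2.11% higher and 4.63% lower, and by edgeR 1 was lower at an unadjusted p under 0.05 (9.97% of all genes). Leaving out each treated library in turn gave a median slope between -0.05 and 0.02.

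Once the median of all ribosomal protein genes of a library was taken off, single genes still differed. The level of RPL3 relative to the others was 0.28 and -0.29 in the 2 libraries of C1, 0.36 and 0.16 in C2, and between -0.20 and 0.07 in treated ones. RPS18 was below its mean in all 4 untreated libraries, at -0.22 to -0.01, and above it in all 8 treated ones, at 0.03 to 0.15. It was not alone in this, since RPS12 had -0.13 to -0.09 in untreated and 0.02 to 0.10 in treated libraries. RPS14 and RPL37A were also lower in every untreated than in every treated library. The share of all genes separated in this way was not taken. RPS27L was above its mean in all 4 untreated libraries, at 0.02 to 0.21, and between -0.13 and 0.01 in treated ones. RPL36A, the gene with the largest spread of those of at least 5 CPM, ran from 4.44 to 9.97 CPM and from -0.80 to 0.74 relative to the others. These values are descriptions without a test, and the genes of the extremes were picked from them.

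GC content moved with these relative levels in the libraries of day 2. The 3 genes of at least 100 CPM with the lowest relative level in C1 replicate 2 were RPL28 (-0.65, GC content 57.0%), RPL8 (-0.61, 61.8%) and RPS2 (-0.56, 61.4%). Over the 74 genes of at least 100 CPM, Pearson's r of relative level with GC content was -0.53 in that library (Spearman's rho -0.46) and 0.48 in C1 replicate 1 (rho 0.40). These genes share a library and a scaling, so the correlation describes the library. It was -0.56 in replicate 2 at 0.005 μM and 0.52 in replicate 2 at 0.05 μM. Genes at or under the median GC content of 49.7% had a median change of -0.58 from day 2 to day 4 and those over it -0.48. With offsets for GC content and length in the fit, the median change from day 2 to day 4 was -0.38, those against C2 were 0.37, 0.22, 0.21 and 0.31 by rising dose, and that of treated against untreated libraries was 0.06.

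**Figure D5:**
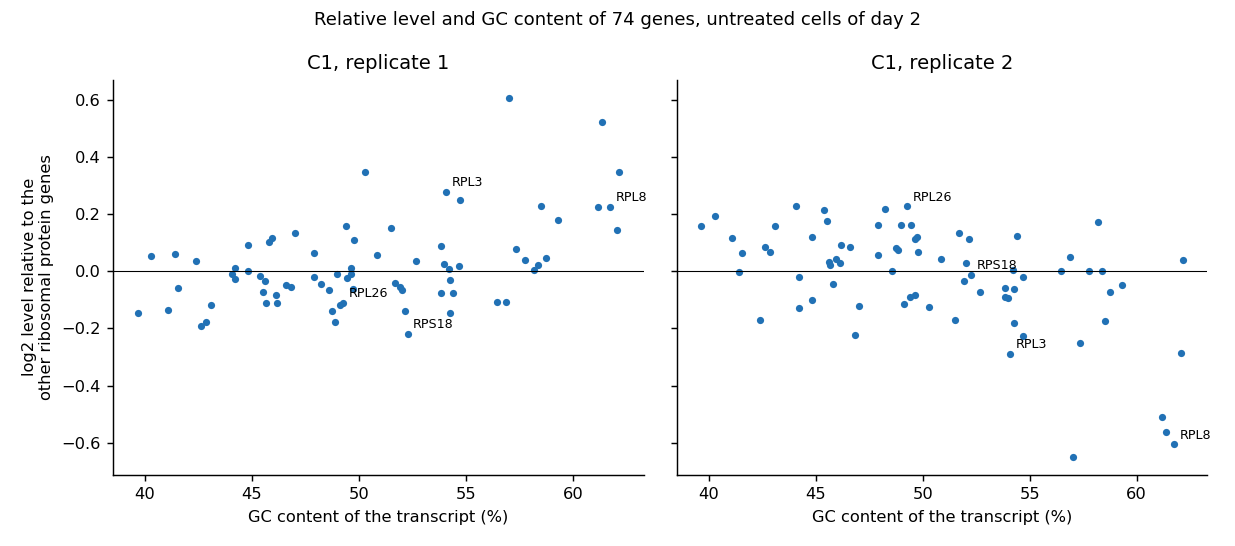
Relative level of 74 ribosomal protein genes of at least 100 CPM (vertical axis) against the GC content of the transcript in percent (horizontal axis), in the 2 libraries of untreated cells of day 2. The relative level is log2 CPM after the gene's mean and the library's median over all 80 tested ribosomal protein genes were subtracted, centered again for each gene. Each point is a gene. RPL8 is at 0.23 in replicate 1 and at -0.61 in replicate 2, and the slope of the points has opposite direction in the 2 libraries.

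Genes with a TOP tract at the annotated start had a median change of 0.48, 0.29, 0.22 and 0.43 by rising dose (58 genes). The 22 tested genes without one had 0.41, 0.20, 0.16 and 0.36. From day 2 to day 4 the medians were -0.55 and -0.51. The medians of both sets lay close together, and no test was made of the difference.

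Other genes of the ribosome and of translation were described by their counts. Of 7 further proteins of the cytosolic ribosome, among them RACK1 and FAU, none was called in any of the 7 comparisons, in which the share of all genes called ran from 0.325% in C2 against C1 to 24.4% in treated against untreated libraries, with a median change of 0.28, 0.06, 0.08 and 0.17 by rising dose, -0.44 from day 2 to day 4 and -0.06 in treated against untreated libraries. RACK1, a scaffold on the small subunit, had 1608 and 1963 CPM in C2 and 1464 to 2607 CPM in treated libraries. Of 18 other genes with TOP messages, 17 were tested and none was called in any comparison, beside the same 0.325% to 24.4% of all genes. Their median was 0.28, 0.04, 0.01 and 0.10 by rising dose, and -0.33 from day 2 to day 4, where the fitted change was below 0 for all 17. Both libraries of C1 were above both of C2 for 5 of them (NPM1, EEF1D, EIF4B, HNRNPA1 and EIF3L), replicate 2 alone for 9, among them EEF1A1, TPT1 and NACA, and replicate 1 alone for 3 (PABPC1, EEF2 and EIF3F). EEF1A1, the elongation factor that brings tRNA to the ribosome, had 12167 and 18940 CPM in C1, 13756 and 14401 CPM in C2 and 10132 to 18222 CPM in treated libraries. The 465 named pseudogenes that passed the filter had medians of 0.21, 0.25, 0.14 and 0.31 by rising dose and -0.29 from day 2 to day 4.

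Mitochondrial ribosomal proteins, 76 of 77 tested, had a median of 0.15, 0.02, -0.03 and 0.13 by rising dose, -0.39 from day 2 to day 4 and -0.14 in treated against untreated libraries, where 62 of 76 were below 0. MRPS6 was lower at 0.05 μM (log2 change -0.54, SE 0.14, adjusted p = 0.0371), from 45.2 ± 2.89 to 31.1 ± 3.78 CPM (SD, n = 2), where 3.23% of all genes were called lower, and no other of the 76 was called at a single dose. Against all untreated libraries 4 of 76 were lower (MRPL57, MRPS34, MRPL16 and MRPL19), where 11.3% of all genes were called lower. Of 90 ribosome biogenesis factors 88 were tested. RIOK3, a kinase of the late small subunit, rose at 0.0005 μM from 116 ± 1.71 to 181 ± 13.8 CPM (0.64, SE 0.14, adjusted p = 0.0313), the 1 of 88 called there, beside 1.87% of all genes called higher. PNO1, which acts in the end processing of 18S rRNA, rose at 0.05 μM (0.62, SE 0.14, adjusted p = 0.0182) and at 0.5 μM (0.68, SE 0.14, adjusted p = 0.0158), from 39.7 ± 1.23 in C2 to 63.7 ± 0.09 CPM at 0.5 μM. RRP9 and IMP4, of the small subunit processome, rose at 0.05 μM by 0.53 (SE 0.15, adjusted p = 0.0475) and 0.53 (SE 0.15, adjusted p = 0.0479). These were 3 of 88 at 0.05 μM, beside 5.09% of all genes called higher, and 1 of 88 at 0.5 μM, beside 4.36%. In treated against untreated libraries 4 of 88 biogenesis factors rose, where 13.1% of all genes were called higher, and 6 fell, where 11.3% were called lower. TCOF1 and UBTF, which act in the transcription of rRNA genes, were among those that fell, at -0.53 (SE 0.17, adjusted p = 0.0329) and -0.39 (SE 0.13, adjusted p = 0.035).

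Of 56 genes with the symbol of an initiation factor 54 were tested. None was called at a single dose, where 2.34%, 3.28%, 8.32% and 6.32% of all genes were called by rising dose, and 8 of 54 fell in treated against untreated libraries, beside 11.3% of all genes called lower. Among these EIF4EBP2, a repressor of the cap-binding protein eIF4E and so no initiation factor itself, fell by 0.46 on the log2 scale (SE 0.13, adjusted p = 0.0152) and EIF4G3, a scaffold of initiation, by 0.44 (SE 0.11, adjusted p = 0.00822). Of 15 regulators 3 fell in that comparison, beside the same 11.3% of all genes: LARP1, which binds TOP messages, by 0.50 (SE 0.18, adjusted p = 0.049), EIF4EBP2, and EIF4EBP1, the best known target of mTOR, by 0.32 (SE 0.10, adjusted p = 0.0258). LARP1 had 292 and 120 CPM in C1, 174 and 144 CPM in C2 and 114 to 162 CPM in treated libraries, so that the groups overlapped and C1 replicate 1 was far above the rest. MYC, which drives transcription of many ribosomal protein genes, had 206 and 134 CPM in C1, 182 and 164 CPM in C2 and 140 to 193 CPM in treated libraries, and was not called in any comparison. In bulk RNA, fewer cells that express a gene and less of its RNA per cell cannot be told apart.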

How the data were processed

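RNA-seq was made from 12 samples of MDA-MB-231 cells. Per the study's methods the authors checked reads with FastQC 0.11.9, trimmed them with Trimmomatic 0.39, aligned them to GRCh37 with STAR 2.7.5 and counted uniquely aligned reads over exons with Rsubread. The deposited values are raw counts per Ensembl gene, and the 12 sample files hold the same counts as the table of the series. The annotation release, the strand setting and the RNA selection are not given in the sources used here. How reads of near-identical copies and of alternate loci were counted is not given there, and without a known strand setting antisense reads cannot be told apart.

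Of 63568 identifiers 55665 were given a symbol. Counts were fitted with edgeR 4.0.16 (limma 3.58.1, R 4.3.3): filterByExpr over the 6 conditions, TMM scaling, robust quasi-likelihood fit, Benjamini-Hochberg adjustment over all genes tested. Each dose was compared with C2, and C2 with C1, in 1 fit of all 12 samples, whose common biological coefficient of variation was 15.6%. Treated against untreated libraries, and the slope on log10 dose over the 8 treated libraries, had fits of their own. An SE is the log2 change divided by the square root of F. Levels are CPM on TMM library sizes, per kilobase of the median-length protein-coding transcript of GENCODE on GRCh37, and starts are those of the canonical transcript. Deviations are log2 CPM minus the gene's mean. Relative levels also have the library's median over the 80 tested ribosomal protein genes subtracted and are then centered again for each gene. Summaries used pandas 2.3.3 and numpy 2.4.6, and plots matplotlib 3.10.9.

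The rule for named genes took called genes with the largest change, a set fixed for their roles (such as stalk, 5S rRNA binding and paralog genes), the 5 highest and 5 lowest per kilobase on day 4, genes that share counts with another, the 5 of largest spread of at least 5 CPM, and of other lists at most 4 called genes. Others are said to be chosen after their values were seen. The genes and all lists were chosen with earlier results of these data known. Alternatives were DESeq2 1.42.0, RLE scaling, TMM without ribosomal protein genes, 2 other filters, no robust fit, a replicate block, GC and length offsets, genes summed with their pseudogenes, both untreated days as control, the 4 samples alone, and each library left out. With 2 replicates in a condition an exact permutation test of 1 gene could not pass the threshold and was not run. Protein sequences were not used here, and the values of some genes are not reported here.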

Additional observations from a re-analysis of the deposited data

Results flagged for a closer look

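In groups of 4 to 8 libraries a value was singled out where its gap to the nearest other library took an unusually large part of the group's range by Dixon's criterion. This held for 9 of 60 groups, where chance gives about 1 in 20, and the genes share their libraries. In untreated cells, C1 replicate 2 stood above the other 3 libraries for RPL22 (618 CPM, others 339 to 385), RPS27L (125 CPM, others 60.3 to 66.9) and RPS4X (1378 CPM, others 824 to 912). In treated cells, replicate 2 at 0.05 μM stood below the other 7 for RPL39 (378 CPM, others 526 to 629), RPL41 (861 CPM, others 1175 to 1418), RPS27 (559 CPM, others 739 to 898), RPS27L (51.0 CPM, others 68.7 to 79.2) and RPS29 (466 CPM, others 638 to 756). Replicate 2 at 0.0005 μM stood above the other 7 for RPL3 (1644 CPM, others 1067 to 1337).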

How the results depend on the processing

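Of 1649 values of 73 results under the alternatives, 1548 kept their call or stayed within the spread between replicates, 35 moved, 46 became called, 1 was no longer called and 19 changes of single genes reversed. For a median this spread was 0.32 on the log2 scale, and 162 of 165 medians stayed within it. It is wider than the main medians at 0.005 μM (0.26) and 0.05 μM (0.21), of treated against untreated (0.03) and of the slope (-0.02). These could reverse and still be counted as kept. Of 165 medians 9 changed sign: C2 against C1 without C1 replicate 2 (0.01) and also without C2 replicate 1 (0.10), 0.005 μM (-0.03) and 0.05 μM (-0.09) with both untreated days as control, 0.05 μM without its replicate 1 (-0.08), the slope without replicate 2 at 0.0005 μM (0.02), and treated against untreated without C1 replicate 1 (-0.04), C2 replicate 1 (-0.08) or C2 replicate 2 (-0.0085). The cause was not tested. Calls at 0.0005 μM numbered 2 by DESeq2, 12 with a filter of at least 1 count (11 higher, 1 lower, beside 1.91% and 1.11% of all genes), 2 higher with GC and length offsets (3.85%), 2 higher with these and a replicate block (3.90%), and 38 with the 4 samples alone. At 0.05 μM DESeq2 gave 1. At 0.5 μM these settings gave 1, 9, 1, 1 and 6, all higher, beside 4.90%, 3.58%, 6.95%, 7.22% and 5.7% of all genes. C2 against C1 gave 19 of 81 lower with at least 1 count (0.313% of all genes), and treated against untreated 2 higher with the offsets (15.98%), and 2 with the block added (15.8%). Over all genes at 0.0005 μM, 592 were called, and 2624 with the 4 samples alone. Without C1 replicate 2 and C2 replicate 1, chosen after seeing the data, calls were 1 lower at 0.0005 μM (2.08% of all genes), 1 lower at 0.05 μM (4.35%) and 2 higher for treated against untreated (8.09%), and the median from day 2 to day 4 was 0.10. The mean share of counts was 6.99% in C1, 5.54% in C2 and 7.22%, 7.04%, 6.81% and 7.56% by rising dose. With only named genes in the total it was 7.72% in C1, 6.10% in C2 and 8.04%, 7.84%, 7.63% and 8.43% by rising dose, and with named pseudogenes counted as members 7.65%, 6.06%, 7.88%, 7.71%, 7.45% and 8.26%. Leaving out 1 library gave 0 to 10, 0, 0 to 1, 0 to 11, 0 to 69, 0 to 36 and 0 calls for the doses in rising order, C2 against C1, treated against untreated and the slope. The medians ran from 0.30 to 0.62, 0.10 to 0.42, -0.08 to 0.41, 0.26 to 0.58, -0.91 to 0.01, -0.08 to 0.35 and -0.05 to 0.02. With both untreated days as control, the medians at 0.0005 and 0.5 μM were 0.17 and 0.12, and the changes of RPL5 at 0.005 μM (-0.047), RPLP0 (-0.0092) and RPL5 (-0.10) at 0.05 μM, and RPL3 (-0.084), RPL41 (-0.0068) and RPS27L (-0.053) at 0.5 μM reversed. Without both libraries RPL3 at 0.5 μM (-0.057) reversed, and from day 2 to day 4 RPLP0 (0.012), RPS18 (0.20), RPL5 (0.050), RPL3 (0.0015) and RPS29 (0.17). Leaving out 1 library reversed RPLP0 (-0.017 to 0.49) and RPL5 (-0.099 to 0.29) at 0.05 μM, RPL3 at 0.5 μM (-0.044 to 0.080), and RPS18 (-1.05 to 0.07) and RPS29 (-1.15 to 0.013) from day 2 to day 4, where RPLP0 (-0.86 to -0.061), RPL5 (-0.73 to -0.0077) and RPL3 (-0.35 to -0.011) kept their sign. RPL3L in treated against untreated libraries was 0.70 and not called without C1 replicate 1. Same-numbered deviations correlated at -0.58 to 0.57 and above 0.1 in 7 of 15 pairs of conditions, and the main fit did not pair the samples by replicate number. With 2 libraries in a condition these correlations cannot decide whether some samples were paired. With the replicate block the medians were 0.46, 0.27, 0.23, 0.42, -0.52, 0.06 and -0.02, and calls stayed at 0, with 1 for treated against untreated. Pairs of 2 libraries and the low counts of RPL3L limit the precision.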
